A study of Danio rerio with 16 samples.

Results

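The genes described here encode releasing hormones and neurosecretory peptides, 10 in all, in sorted cells of the zebrafish brain. They were chosen by name: trh (thyrotropin-releasing hormone), crha and crhb (corticotropin-releasing hormone), uts1 (urotensin 1), oxt (the fish oxytocin, isotocin), avp (vasotocin), gal (galanin), gnrh3 (gonadotropin-releasing hormone), npvf and qrfp (both RFamide peptides). The deposited count table holds 30565 gene symbols. Of the 10 genes, 8 were found by symbol and 1, gal, through its RefSeq synonym galn, and no row was assigned to crha. A row named crh was kept apart, because RefSeq gives crh as an older symbol of crhb, which has its own row.

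Neurosecretory neurons cut a precursor protein into a small peptide, pack it into dense-core granules and release it into the pituitary or the surrounding brain. In fish, axons of hypothalamic neurons enter the pituitary directly, and the preoptic area is the classical seat of the isotocin, vasotocin and CRH neurons. Many of the same peptides also act inside the brain on arousal, feeding and stress responses through G protein-coupled receptors.

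The study measured bulk RNA of cells sorted by flow cytometry from papain-dissociated brains of transgenic fish aged 1 month, with 4 libraries per group and 8 brains pooled per library. LH cells were the GCaMP6s-positive cells of Tg(76A:Gal4FF;UAS:GCaMP6s), in which the 76A driver labels the lateral hypothalamus, and non-LH cells were the GCaMP6s-negative brain cells of that line. The GFP-positive cells of Tg(116A;Gal4FF:UAS:GFP), in which the 116A driver labels the caudal hypothalamus, made up the cH group, and the GFP-negative cells the non-cH group. Both lines carried a Gal4 driver and a UAS reporter, so the positive cells are those in which that driver was active, and the negative cells are a mixture of all other dissociated brain cells. Line, driver and reporter changed together with region between LH and cH and cannot be told apart from it.

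The libraries held 26.8 M to 49.4 M counts. In cH, 13478 to 16887 symbols had a count, against 18843 to 21015 in the 12 other libraries, and replicates of cH correlated less with each other (Pearson r of 0.614 to 0.791 across genes) than those of the other groups (0.826 to 0.893). The 10 pan-neuronal markers summed to 0.595% to 0.671% of counts in LH and 0.748% to 0.779% in non-LH. In cH they summed to 0.0208% to 0.139%, against 0.754% to 0.949% in non-cH, while 10 radial glia markers reached 5.80% to 9.11% of counts in cH and 0.349% to 1.08% in non-cH. The 8 markers of the monoaminergic caudal hypothalamus, the labelled region, took 0.0277% to 0.177% of counts in cH and 0.00630% to 0.00909% in non-cH. Not all of them followed the sum: hdc had a lower mean level in cH than in non-cH, with overlap, and fev had no count in cH. The 7 erythrocyte markers took at most 0.0104% of counts in LH and 0.000916% in cH, against at least 0.188% in non-LH and 0.116% in non-cH. Of 12 pituitary markers, gh1, cga, tshba, fshb, smtla and smtlb were at 0 in all 16 libraries. The others, prl, pomca, lhb, pou1f1, pitx1 and tbx19, had counts in some libraries, and pomca averaged 4.75 CPM in non-LH and 5.06 CPM in non-cH. All pituitary markers together took at most 0.00177% of counts in a library, one of non-cH.

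**Figure D1:**
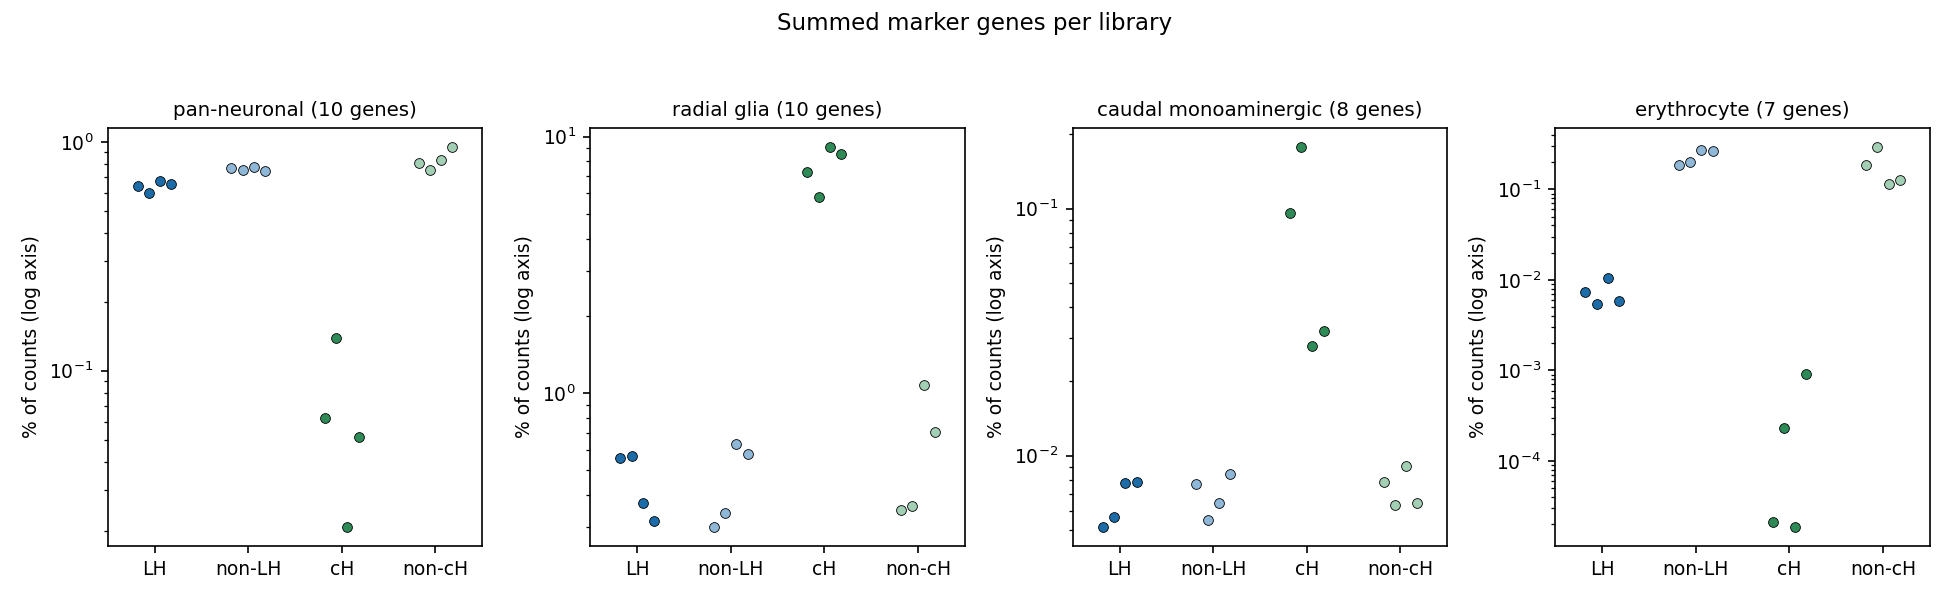
Share of all counts (percent, log axis) taken by the summed marker genes of 4 cell classes in each library, by group (LH, non-LH, cH, non-cH). Points are single libraries, and the cH libraries lie below all others for the pan-neuronal genes (0.0208% to 0.139%) and above all others for the radial glia and monoaminergic genes.

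Among the peptide genes, trh was the one that lay higher in every LH library than in any non-LH library, as did 9.2% of all symbols tested. The genes uts1, gal and crhb lay lower in LH without overlap, as did 11.6% of symbols. Neither trh nor these genes were called by edgeR in LH over 16 libraries. In cH cells uts1 and oxt had no count in any library and were called lower than in non-cH cells, as were 13.4% of all symbols. Together with gal, which was not called, they lay lower in cH without overlap, as did 17.1% of symbols. The other genes were at low levels, or at 0, in most libraries, and gnrh3 had no count in any of the 16. Values are CPM, counts scaled to a common library total after TMM scaling, which can be compared between samples for 1 gene but, without gene lengths, not between genes.

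**Figure D2:**
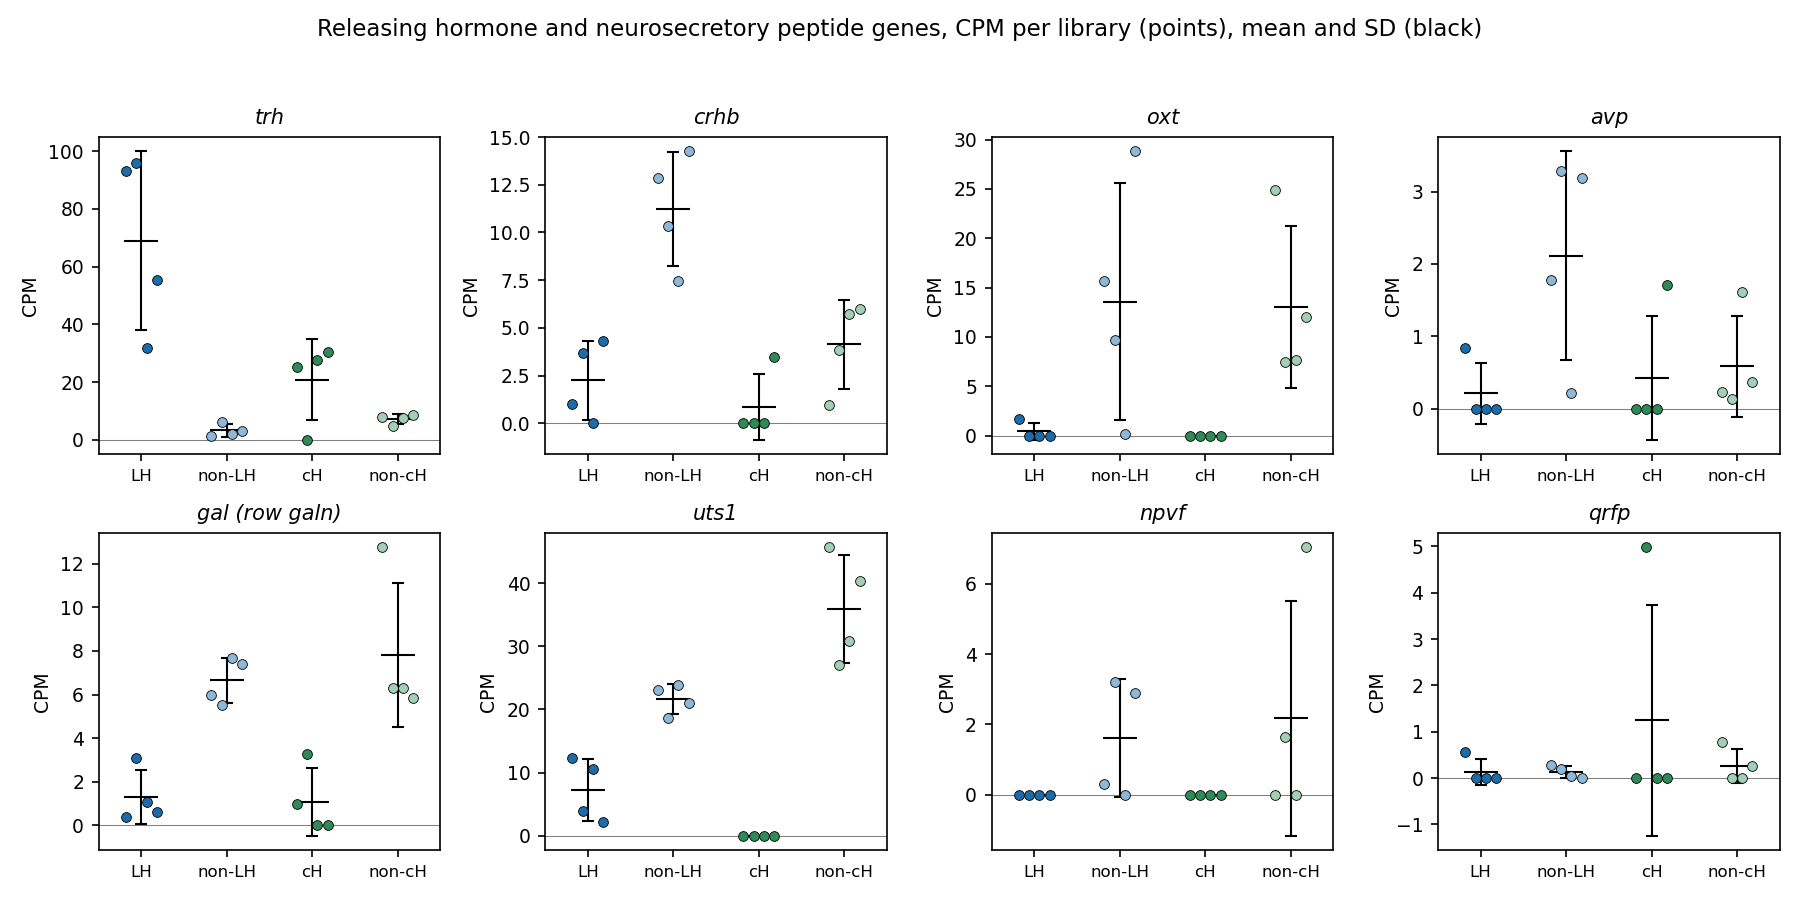
Level of each detected peptide gene (CPM) in all 16 libraries, grouped as LH, non-LH, cH and non-cH. Points are libraries, and black marks are the mean and SD of 4. For trh the LH points (31.8 to 95.8 CPM) lie above all others, and for uts1 the cH points lie at 0.

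trh encodes the precursor of the tripeptide TRH, which in mammals drives thyrotropin release from the pituitary and also acts as a transmitter in the brain. In LH the gene had 93.0, 95.8, 31.8 and 55.2 CPM, against 1.46, 6.27, 2.16 and 2.93 CPM in non-LH. In cH it had 25.1, 0, 27.5 and 30.5 CPM, against 7.80, 4.78, 7.59 and 8.62 CPM in non-cH. The LH libraries stood above every other library. Of the cH libraries, 3 lay above all non-cH libraries and the one of replicate 2, with 26.8 M counts, had none for trh.

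The groups averaged 68.9 ± 30.9 CPM in LH and 3.20 ± 2.13 CPM in non-LH (SD, n = 4 each), and the exact permutation test of the means gave its smallest possible p for 4 against 4, 0.0286 (two-sided, as for all such tests here). The log2 fold change was 4.43 (SE 1.19). In edgeR's quasi-likelihood test over all 16 libraries the adjusted p of trh was 0.0874, above the threshold of 0.05. In the fit of the 8 libraries of that line the log2 fold change was 4.46 (SE 0.54) and the adjusted p 0.000485. That call held in all 8 fits that left out 1 library (adjusted p of 0.000554 to 0.00358). DESeq2 on 16 libraries gave an adjusted p of 0.000250. The 16-library fit shares 1 estimate of the spread over all groups. Without cH replicate 2, the library without trh counts, its adjusted p for trh in LH was 0.000326. No other omission of 1 library gave a call in that fit (highest adjusted p 0.260). With scaling by size factors the adjusted p was 0.0822, without the filter 0.0993 and with a replicate block 0.360. The cause of these changes was not tested.

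Between cH and non-cH the mean level of trh was 20.8 ± 14.0 CPM against 7.20 ± 1.67 CPM, and the groups overlapped. The log2 fold change was 1.53 (SE 1.06), with an adjusted p of 0.350, and the exact permutation p was 0.143. Without cH replicate 2 the log2 fold change was 1.99, and the adjusted p was 0.00858 over 16 libraries and 0.0412 over 8. That omission removes the cH library without trh counts, and no other fit without 1 library called trh in cH. From high to low, trh was ordered LH, cH, non-cH, non-LH. The LH and cH libraries did not overlap (exact permutation p = 0.0286), although the fitted difference, 1.73 on the log2 scale, had an adjusted p of 0.269. The cH and non-cH libraries overlapped, as did the non-cH and non-LH libraries (exact permutation p = 0.0571).

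uts1 encodes urotensin 1, a peptide of the CRH family found in fish that is also made in their caudal neurosecretory system. It had 12.3, 3.91, 10.6 and 2.24 CPM in LH and 23.1, 18.6, 23.9 and 21.1 CPM in non-LH. All 4 cH libraries were at 0, against 45.7, 27.0, 30.8 and 40.3 CPM in non-cH. No pair of neighbours in the order non-cH, non-LH, LH, cH overlapped, and each of these steps had an exact permutation p of 0.0286.

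In cH cells uts1 was at least 1591-fold lower than in non-cH cells, taking 3 counts over the group as the floor against 6140 counts in non-cH. Its adjusted p was 2.81e-06 over 16 libraries and 0.00308 over 8, and the call held without any 1 library. Between LH and non-LH the log2 fold change was -1.58 (SE 0.57), with adjusted p-values of 0.293 over 16 libraries, 0.0729 over 8 and 0.0487 by DESeq2. The difference between the LH and the cH contrast was itself past the threshold for uts1 (adjusted p = 2.85e-05). In LH the gene was at least 312-fold higher than in cH (adjusted p = 6.45e-06).

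oxt encodes the precursor of isotocin, the fish counterpart of oxytocin. It had 1.72, 0, 0 and 0 CPM in LH, against 15.6, 9.72, 0.173 and 28.8 CPM in non-LH. All cH libraries were at 0, against 24.9, 7.49, 7.68 and 12.0 CPM in non-cH. Between LH and non-LH the libraries overlapped, because non-LH replicate 3 lay below LH replicate 1, and the adjusted p was 0.398 (log2 fold change -4.98, SE 2.04). LH replicate 1 held the only LH counts, and without it the adjusted p was 0.0596 over 16 libraries and 0.0250 over 8. That omission leaves LH at 0 through the choice of library, and no other fit without 1 library called oxt in LH. In cH the gene was at least 579-fold lower than in non-cH, with an adjusted p of 0.0119 over 16 libraries and 0.0121 over 8. Leaving out non-cH replicate 4 moved the adjusted p of the 8-library fit to 0.0524, and no single omission ended the call in the 16-library fit. The order was non-LH, non-cH, LH, cH. The lowest non-cH library (7.49 CPM) lay above the highest LH library, whereas non-LH and non-cH (13.6 ± 12.0 and 13.0 ± 8.19 CPM) had an exact permutation p of 0.943.

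gal encodes galanin, a peptide of hypothalamic and preoptic neurons. It had 0.394, 3.10, 1.09 and 0.633 CPM in LH, against 5.98, 5.54, 7.66 and 7.42 CPM in non-LH. In cH it had 1.00, 3.27, 0 and 0 CPM, against 12.7, 6.31, 6.29 and 5.86 CPM in non-cH. Every library of a positive population was below every library of its negative population, with an exact permutation p of 0.0286 in each line. The log2 fold change was -2.35 (SE 1.41, adjusted p = 0.736) in LH and -2.87 (SE 1.44, adjusted p = 0.181) in cH over 16 libraries, and the 8-library fit gave an adjusted p of 0.0601 in LH and 0.491 in cH. Neither contrast was called.

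crhb encodes the CRH that drives corticotropin release in the stress axis. It had 0.984, 3.69, 0 and 4.29 CPM in LH, against 12.9, 10.3, 7.44 and 14.2 CPM in non-LH. In cH it had 0, 0, 0 and 3.47 CPM, against 0.958, 3.81, 5.75 and 5.99 CPM in non-cH. LH and non-LH did not overlap (exact permutation p = 0.0286), but the log2 fold change of -2.32 (SE 1.82) had an adjusted p of 0.935 over 16 libraries and 0.219 over 8. In cH the only counts were those of replicate 4, and without that library the adjusted p was 0.00572 over 16 libraries and 0.0296 over 8, against 0.438 and 0.680 with it. That omission leaves cH at 0 through the choice of library, and no other fit without 1 library called crhb in cH. crhb was also higher in every non-LH than in every non-cH library (means 11.2 ± 2.99 and 4.13 ± 2.33 CPM, exact permutation p = 0.0286), with an adjusted p of 1 over 16 libraries.

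avp encodes vasotocin, the fish counterpart of vasopressin. In LH it was detected only in replicate 1 (0.844 CPM), against 1.78, 3.28, 0.216 and 3.18 CPM in non-LH. In cH it was detected only in replicate 4 (1.71 CPM), against 0.228, 0.131, 1.62 and 0.368 CPM in non-cH. The groups overlapped in both lines. Adjusted p-values were 0.839 in LH and 0.919 in cH. Over the 8 libraries of the LH line the adjusted p was 0.329, and 1 of the 8 fits without 1 library called avp lower in LH (0.0295). Among these fits, the one without LH replicate 1 leaves LH at 0 for avp through the choice of library.

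npvf encodes RFamide-related peptides, the counterparts of the gonadotropin-inhibitory hormone of birds. It had no count in LH or cH, against 0.320, 3.21, 0 and 2.90 CPM in non-LH and 0, 1.64, 0 and 7.04 CPM in non-cH. Pooled over the group, it was at least 75.1-fold lower in LH (adjusted p = 0.344) and at least 88.9-fold lower in cH (adjusted p = 0.0827), and neither was called. However, both negative populations also had a library at 0, so the groups overlapped (exact permutation p of 0.143 in LH and 0.429 in cH). These folds thus rest on the negative libraries that had counts, in non-cH mostly replicate 4. qrfp, a further RFamide peptide gene, had a count in 7 libraries and exceeded 1 CPM only in cH replicate 2 (4.98 CPM).

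For gnrh3, the gonadotropin-releasing hormone of the fish forebrain, the 2 rows of the table summed to 0 counts in every library. With 3 counts as the floor, a count of 0 allows up to 0.0203 CPM over the LH group, 0.0176 over non-LH, 0.0224 over cH and 0.0174 over non-cH. These floors take each count as independent and reach only as far as counting error goes. A 0 in 1 library need not mean a low level in its group: cH replicate 2 had 0 counts of trh, while the other cH libraries had 776 to 1390. The unassigned crh row had 0, 0, 0 and 5.17 CPM in LH and 3.88, 0, 1.88 and 2.59 CPM in non-LH. It had no count in cH, against 0, 1.47, 2.87 and 1.05 CPM in non-cH.

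Over all of the peptide genes, 8 passed the filter on low counts and were tested, gnrh3 had no counts and crha had no row. In LH against non-LH edgeR called 0 of 8 over 16 libraries, where 0.608% of all symbols were called higher and 1.06% lower. An unadjusted p under 0.05 was reached by 4 of them. The share of all symbols that reached it is not given, here or for the lists below. DESeq2 called 2, trh and uts1, but it also called more of all symbols than edgeR did, so these shares do not apply to it. The 8-library fit tested 6 and called 1 higher, trh, and 0 lower, with 7.14% and 6.24% of all symbols called in those directions. The libraries did not overlap for 1 gene that was higher in LH (9.2% of all symbols tested) and for 3 that were lower (11.6%).

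In cH against non-cH, 2 of 8 were called lower and 0 higher over 16 libraries, with 13.4% of all symbols called lower and 7.04% higher. The 8-library fit tested 5 and called the same 2, oxt and uts1, with 6.85% of symbols called lower and 5.05% higher. Libraries did not overlap for oxt, gal and uts1, all lower in cH (17.1% of symbols lower, 7.68% higher). The median log2 fold change of the 8 genes was -2.33 in LH, against -0.06 over all symbols tested, and -2.55 in cH, against -0.32. The shift of the cH libraries toward glial and away from neuronal markers stood beside these values: 9 of 10 pan-neuronal genes fell in cH (median log2 fold change -3.60) and 9 of 10 radial glia genes rose (3.50). Its part in the peptide results was not tested. In bulk RNA, fewer peptide neurons among the sorted cells and less peptide RNA per neuron cannot be told apart.

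**Figure D3:**
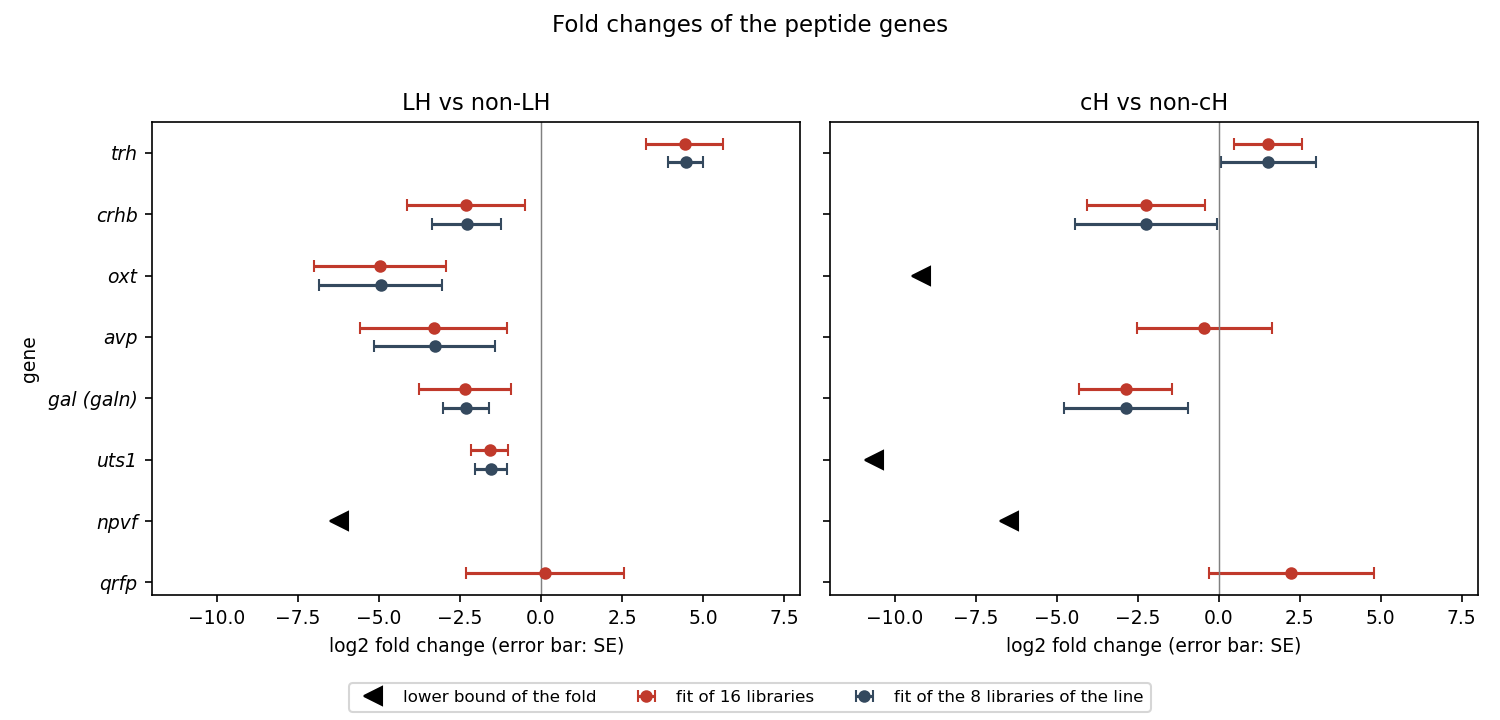
Log2 fold change of the tested peptide genes in LH against non-LH (left) and cH against non-cH (right), with SE, in the fit of 16 libraries and in that of the 8 libraries of a line. Triangles are lower bounds of the fold where the positive population had no counts; trh lies right of 0 in both contrasts, and oxt and uts1 have bounds in cH of 579-fold and 1591-fold.

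Between the positive populations, LH against cH, 1 of 8 genes, uts1, was called higher over 16 libraries and 1 of 4 over 8, with 14.0% and 7.55% of all symbols called higher. For 2 genes, trh and uts1, every LH library exceeded every cH library (18.7% of symbols), and for 0 the reverse held (8.69%). These values share the LH and cH libraries with the contrasts above. Between the negative populations, non-LH against non-cH, edgeR called 0 of 8 over 16 libraries and 0 of 7 over 8, where 0.00988% and 0.0689% of symbols were called. At an unadjusted p under 0.05 there were 0 and 2, and DESeq2 called 0. Here crhb was higher without overlap (3.59% of symbols) and uts1 lower without overlap (2.68%). The contrast of contrasts called 1 of 8, uts1, with a background of 7.54% called in that direction. For trh that difference was 2.90 (SE 1.49, adjusted p = 0.249).

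The mature form of TRH carries a pyroglutamate at its N terminus, formed by glutaminyl cyclase (qpct), and an amide at its C terminus, formed by peptidylglycine monooxygenase (pam). It acts on TRH receptors and is cleaved outside the cell by TRH-degrading ectoenzyme, of which the table has 2 genes, trhde.1 and trhde.2. In LH cells the levels of qpct, pam, both trhde genes and the receptor genes trhrb and trhr2 lay above those of non-LH cells without overlap, as did trh. Of all symbols tested, 9.2% did so. A further receptor gene, trhra, overlapped, and a further peptidase gene, pgpep1, overlapped with a lower mean in LH.

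qpct had 78.1, 63.5, 71.7 and 59.7 CPM in LH, against 17.7, 24.2, 29.4 and 18.1 CPM in non-LH. pam had 325, 390, 406 and 393 CPM in LH, against 194, 129, 193 and 181 CPM in non-LH. pam was called over 16 libraries (log2 fold change 1.12, SE 0.19, adjusted p = 0.00755), and qpct had an adjusted p of 0.112 there and of 0.000633 over 8 libraries (1.65, SE 0.21). Both enzymes act on many peptides besides TRH. In cH, pam had 264, 198, 234 and 150 CPM against 208, 153, 155 and 191 CPM in non-cH, and the change of pam differed between the lines (difference 0.86 on the log2 scale, adjusted p = 0.0492).

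The receptor gene trhrb had 19.8, 3.40, 14.9 and 6.21 CPM in LH, against 1.64, 1.68, 1.90 and 2.57 CPM in non-LH. In cH it had 25.1, 61.6, 0 and 7.45 CPM, and all non-cH libraries were at 0. In LH its log2 fold change was 2.54 (SE 0.59) with an adjusted p of 0.0177 over 8 libraries, and 0.681 over 16. The 8-library call was lost in 4 of 8 fits that left out 1 library, those without LH replicate 1 or non-LH replicate 1, 2 or 3 (highest adjusted p 0.0624). In cH it was at least 1231-fold higher than in non-cH over the group, and was called over 16 libraries (adjusted p = 0.00172). However, cH replicate 3 had no count and the groups therefore overlapped (exact permutation p = 0.143). That bound rests on the 0 of non-cH, which the other negative population did not share. Every non-LH library lay above non-cH (exact permutation p = 0.0286). Between LH and cH the log2 fold change of trhrb was -1.09, with an adjusted p of 0.623 over 16 libraries.

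A second TRH receptor gene, trhr2, had 4.58, 3.99, 4.11 and 7.48 CPM in LH, against 0, 0, 1.14 and 0.103 CPM in non-LH. It had no count in cH, against 1.12, 1.45, 0.741 and 0.0525 CPM in non-cH. LH and non-LH did not overlap (exact permutation p = 0.0286), with adjusted p-values of 0.467 over 16 libraries and 0.130 over 8. In cH it was at least 38.9-fold lower and was called (adjusted p = 0.0235). The LH and the cH contrast differed for both receptor genes (adjusted p of 0.0152 for trhrb and 0.0154 for trhr2). The mean of trhrb was higher in both positive populations, with the larger fitted change in cH against the 0 of non-cH. That of trhr2 was higher in LH and lower in cH. trhra reached 2.55 CPM in LH, 2.31 CPM in non-LH and 8.37 CPM in cH at most, and had no count in non-cH.

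trhde.1 had 45.2, 87.9, 62.0 and 111 CPM in LH, against 28.5, 13.0, 24.8 and 22.6 CPM in non-LH. trhde.2 had 61.9, 64.5, 57.6 and 67.7 CPM in LH, against 15.6, 22.4, 27.9 and 29.8 CPM in non-LH. Both were called over 8 libraries (log2 fold changes 1.82 and 1.43, adjusted p of 0.00451 and 0.00178) and in all 8 fits without 1 library, while the 16-library fit gave adjusted p-values of 0.318 and 0.112. In cH, trhde.2 had 80.0, 25.8, 47.1 and 22.6 CPM, against 25.4, 16.8, 13.3 and 18.8 CPM in non-cH. It was called there over 16 libraries (1.24, SE 0.40, adjusted p = 0.0380) but not over 8 (0.231), and 8 of the 16 fits without 1 library lost the call. Of the 5 genes for a binding protein or peptidases, these were the 2 called higher in LH over 8 libraries (7.14% of all symbols), with 0 called there over 16, and trhde.2 was the 1 called higher in cH over 16 (7.04%). pgpep1, a pyroglutamyl peptidase, had 0.188 to 21.7 CPM in cH and at most 28.3 CPM in non-cH (adjusted p = 0.198). The means were 8.21 and 24.6 CPM, and cH was lower without overlap (exact permutation p = 0.0286), as were 17.1% of all symbols. In LH pgpep1 averaged 11.5 CPM, against 20.9 CPM in non-LH, and overlapped (adjusted p of 0.152 over 8 libraries). crhbp, the CRH binding protein, had 4.33, 3.77, 20.1 and 7.46 CPM in LH, against 20.3, 19.1, 13.2 and 18.6 CPM in non-LH, and the groups overlapped.

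**Figure D4:**
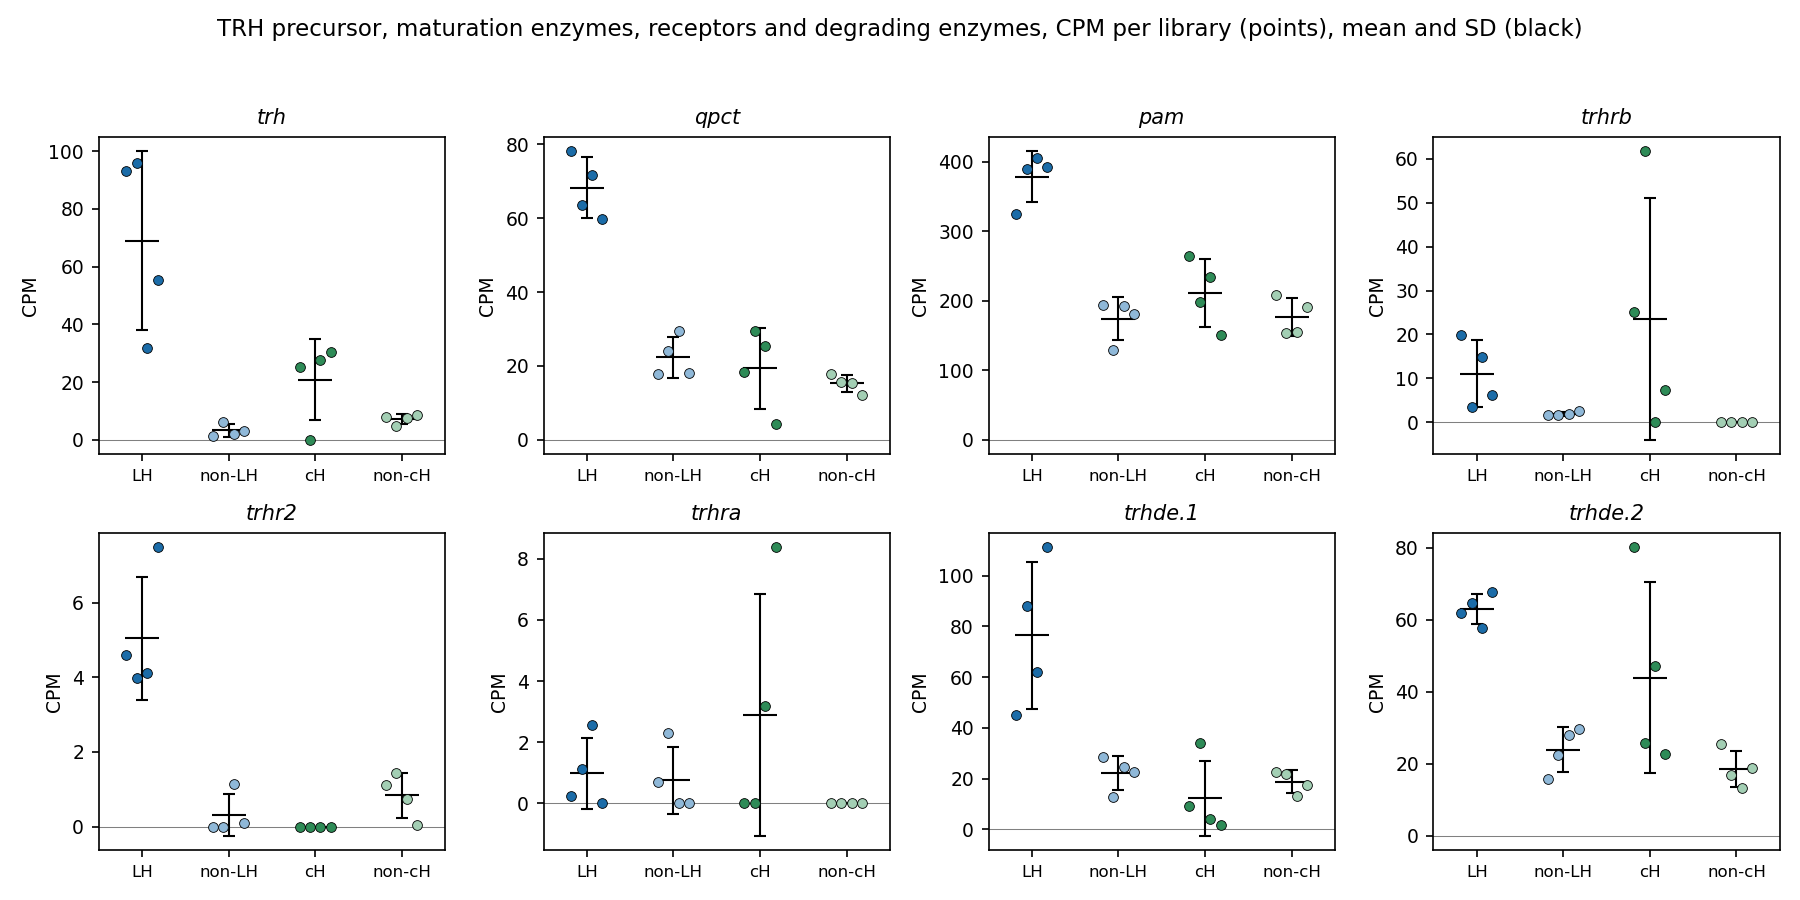
Levels (CPM) of trh, the enzymes qpct and pam that complete the peptide, the receptors trhrb, trhr2 and trhra, and the degrading enzymes trhde.1 and trhde.2 in each library by group (LH, non-LH, cH, non-cH), with mean and SD in black. In all panels except trhra the 4 LH points lie above the 4 non-LH points.

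In LH the galanin receptor genes galr1a and galr2b lay above non-LH, where gal lay below; galr1b, also in the table, had no count in any library. galr1a had 21.5, 5.62, 25.6 and 8.33 CPM in LH, against 0, 2.29, 0.971 and 0.282 CPM in non-LH. galr2b had 35.7, 25.0, 30.8 and 33.5 CPM in LH, against 12.4, 12.3, 5.67 and 10.7 CPM in non-LH. Both lay higher in every LH library, as did 9.2% of all symbols tested. Over 8 libraries both were called (galr2b 1.64, SE 0.29, adjusted p = 0.00422; galr1a 4.14, SE 1.16, adjusted p = 0.0429), and neither was over 16 (0.996 and 0.577). The call of galr1a was lost in 5 of the 8 fits without 1 library, those without LH replicate 1, 3 or 4 or non-LH replicate 3 or 4 (highest adjusted p 0.112), and that of galr2b in none.

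In cH galr1a had no count, against 0, 0, 4.94 and 2.1 CPM in non-cH, and galr2b had 0, 0.0711, 0.354 and 21.1 CPM, against 9.94, 6.62, 2.00 and 2.99 CPM in non-cH. galr1a was called lower in cH over 16 libraries (adjusted p = 0.0372), a call that only 5 of 16 fits without 1 library kept. The cH libraries overlapped non-cH for both genes.

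avpr2ab, a vasotocin receptor, was detected in LH only in replicate 3 (1.09 CPM), against 7.99, 8.34, 4.08 and 2.80 CPM in non-LH. It had no count in cH, against 5.20, 3.09, 0.0898 and 8.62 CPM in non-cH. In cH it was at least 182-fold lower and was called (adjusted p = 0.0174), and in LH the adjusted p was 0.486. avpr1aa, a further vasotocin receptor, had no count in LH or cH and at most 1.64 CPM in non-LH and 1.53 CPM in non-cH (adjusted p of 0.283 in LH and 0.0571 in cH). The isotocin receptor genes oxtr and oxtrl had at most 2.43 CPM in any library. crhr1, the main CRH receptor, had 20.5, 24.0, 25.3 and 44.6 CPM in LH, against 45.6, 35.2, 44.6 and 34.6 CPM in non-LH. In cH it had 33.0, 46.0, 5.38 and 10.5 CPM, against 51.1, 26.1, 37.4 and 56.1 CPM in non-cH, and it was not called in either line. npffr1l2, a receptor of RFamide peptides, had 3.43, 2.73, 11.5 and 0.731 CPM in LH, against 0.228, 0.486, 1.70 and 2.59 CPM in non-LH, and overlapped.

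Of 28 receptor genes listed, 23 had a row and 16 were tested over 16 libraries. In LH, 0 of the 16 were called by edgeR over 16 libraries, 3 had an unadjusted p under 0.05, and DESeq2 called 0. The 8-library fit called 3 of 14 higher (trhrb, galr1a, galr2b; 7.14% of all symbols) and 0 lower (6.24%). In cH, 1 of 16 rose (trhrb) and 3 fell (trhr2, galr1a, avpr2ab), where 7.04% of all symbols rose and 13.4% fell. DESeq2 called 7 of 15 there, and its share of all symbols is not given here. The 8-library fit tested 4 other receptors (crhr1, galr2b, gnrhr1, npffr1l2) and called 0, with 0 at an unadjusted p under 0.05. None of the receptors called over 16 libraries passed its filter, so it could not test those calls. The median log2 fold change of the receptors was 0.26 in LH and -1.51 in cH over 16 libraries.

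**Figure D5:**
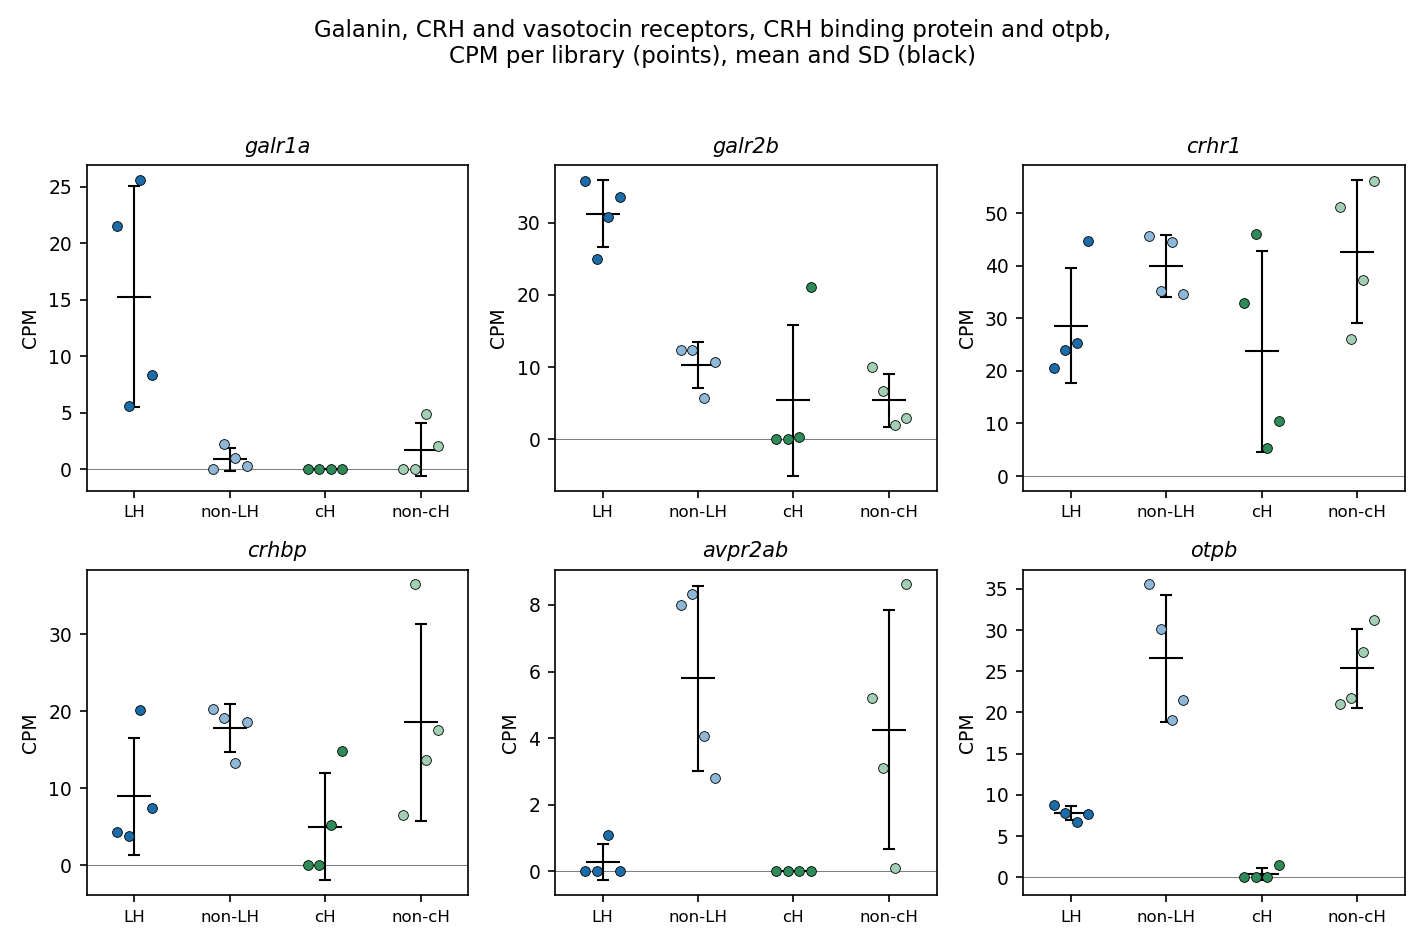
Levels (CPM) of the galanin receptors galr1a and galr2b, the CRH receptor crhr1, the CRH binding protein crhbp, the vasotocin receptor avpr2ab and the transcription factor otpb in each library by group (LH, non-LH, cH, non-cH), with mean and SD in black. The LH points lie above the non-LH points for both galanin receptors and below them for avpr2ab and otpb.

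Of 14 tested genes that load and process peptide granules, 10 rose in LH and 0 fell over 8 libraries, where 7.14% of all symbols rose and 6.24% fell. Over 16 libraries 1 rose, pam (0.608% of all symbols). DESeq2, which called more of all symbols than edgeR did, called 2 of 12. Their median log2 fold change over 16 libraries was 1.07, against -0.06 over all symbols. vgf, a granin-like granule protein, had 126, 128, 143 and 113 CPM in LH, against 27.3, 32.5, 24.7 and 27.0 CPM in non-LH (2.23, SE 0.14, adjusted p = 1.09e-05 over 8 libraries). scg2b, a secretogranin, had 932, 725, 742 and 843 CPM in LH, against 267, 243, 266 and 315 CPM in non-LH (1.61, SE 0.11, adjusted p = 1.94e-05).

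In cH, 1 of 14 processing genes rose, chgb, a chromogranin with 378, 665, 97.4 and 168 CPM in cH against 26.0, 19.5, 10.6 and 13.9 CPM in non-cH (adjusted p = 0.00124). Those that fell were cadpsb, which primes dense-core granules for release (44.6, 8.29, 19.9 and 5.89 CPM in cH against 165, 199, 271 and 237 CPM in non-cH, adjusted p = 0.000131), and cpe, the carboxypeptidase that trims cut precursors (adjusted p = 0.00928, and 0.0999 over 8 libraries). Among all symbols, 7.04% rose and 13.4% fell.

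Orthopedia (otpb), with its partner sim1, is required in zebrafish for the neurons that make isotocin and CRH. otpb had 8.83, 7.81, 6.75 and 7.65 CPM in LH, against 35.5, 30.2, 19.0 and 21.5 CPM in non-LH. In cH it was detected in 1 library only (1.45 CPM in replicate 4), against 21.1, 21.7, 27.3 and 31.3 CPM in non-cH. It was lower without overlap in both lines, with an adjusted p of 0.00204 in LH over 8 libraries (0.822 over 16) and of 0.00729 in cH over 16 (0.127 over 8). sim1b had no count in LH, against 10.5, 0.535, 8.46 and 1.90 CPM in non-LH. That is a fold of at least 274 downward, with an adjusted p of 0.198 over 16 libraries and of 0.00866 over 8, a call kept in all 8 fits without 1 library.

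fezf2, which acts upstream of otp in zebrafish, had no count in LH, against 4.11, 4.25, 3.02 and 3.80 CPM in non-LH. It was at least 186-fold lower and was called over 16 libraries (adjusted p = 0.00830). lhx9, a factor that promotes hypocretin neurons in zebrafish, had 4.51, 0.178, 0.0708 and 4.88 CPM in cH, against 282, 356, 312 and 348 CPM in non-cH (adjusted p = 0.000106). Of the 21 lineage factors, 20 were tested. Over 16 libraries fezf2 was the 1 that fell in LH, and 4 fell in cH (lhx9, otpb, sim1a, nr5a1b), with 0 rising in either line; 1.06% of all symbols fell in LH and 13.4% in cH. Of the 16 fits without 1 library, 6 kept the cH call of sim1a and 10 that of nr5a1b (highest adjusted p 0.0784 and 0.0627), while all kept those of lhx9 and otpb. Over 8 libraries 6 of 19 fell (6.24% of all symbols) and 1, rx3, rose (7.14%) in LH, and 1 of 16 fell in cH (6.85%).

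Other hypothalamic peptide genes were tested for comparison, 13 of 22. In LH, edgeR called 0 over 16 libraries (2 at an unadjusted p under 0.05). DESeq2, which called more of all symbols than edgeR did, called 2. Over 8 libraries 1 of 11, the somatostatin gene sst1.1, had an adjusted p of 0.0460 (6.24% of all symbols fell), which only 1 of 8 fits without 1 library kept under the threshold (highest 0.136). pmch, the melanin-concentrating hormone gene, had 0, 0, 0 and 0.0487 CPM in LH, against 0, 11.3, 18.9 and 21.3 CPM in non-LH (adjusted p = 0.194). kiss1, a kisspeptin gene, reached at most 0.352 CPM in LH and 5.75 CPM in non-LH (adjusted p = 0.326). vip, the gene of vasoactive intestinal peptide, had 17.8, 14.2, 7.75 and 2.53 CPM in LH, against 1.37, 0.146, 1.64 and 3.39 CPM in non-LH, and overlapped (adjusted p of 0.671 over 16 libraries and 0.0732 over 8). In cH, 7 fell and 0 rose over 16 libraries, kiss1 and vip among them, and 3 of 10 fell over 8 (6.85% of all symbols). Among those that fell in cH were the somatostatin gene sst1.2 (at least 58.6-fold, adjusted p = 0.00168) and ucn3l, a urocortin gene of the CRH family (log2 fold change -7.50, SE 1.49, adjusted p = 0.00212). These calls stood, like those of oxt and uts1, among the 13.4% of all symbols that fell in cH.

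Of the genes with at least 10 CPM on average in some group, trh, crhb, oxt and uts1, the symbols with the most similar pattern over the 16 libraries were found by Pearson correlation of log2(CPM + 1), as a description, since the libraries share 4 groups. For trh these were prom1a (r = 0.92), tnrc18 (0.89) and ahcyl1 (0.89). prom1a averaged 159 CPM in LH, 51.0 CPM in non-LH, 69.8 CPM in cH and 65.9 CPM in non-cH. For uts1 they were kdm7ab (0.98), cerkl (0.97) and cacna2d4b (0.97). For crhb they included vezf1a (0.92) and rps10 (0.90), and for oxt they were f5 (0.95), hbae5 (0.91) and aqp9a (0.90). hbae5 is a haemoglobin gene, and of 7 erythrocyte markers 5 fell in LH (1.06% of all symbols) and 6 in cH (13.4%) over 16 libraries. Of the LH calls, that of ba1l was kept in 4 and that of slc4a1a in 5 of the 16 fits without 1 library.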

How the data were processed

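Per the labels' protocols, libraries came from SMART-seq v2 amplification of bulk RNA followed by Nextera XT tagmentation. FastQC, STAR and the build GRCz11 are named without versions, per the submitters' processing notes; the counter, the handling of reads that map to several places and the use of strand are not given in the sources used here. The authors deposited raw read counts per gene for all 16 libraries, and 0 columns belonged to no sample. Of 47038 rows, 9 named no gene, or held no whole number, and were left out, with 3.1e-05% of all counts, which left 47029. Rows of a symbol that differ only in an ending _1, _2 were summed to 30565 symbols; reads of near-identical copies can be lost or split. Of nonzero counts from 1 to 50, 65.7% were even, so both reads of a pair may have been counted, and bounds and floors cover counting error at best, also because PCR reads carry no molecular identifiers. If both reads were counted, the floors are too low and the folds against a group at 0 too large.

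edgeR 4.0.16 under R 4.3.3 tested symbols with TMM scaling, filterByExpr (minimum count 10, minimum total 15; 20241 symbols kept) and the quasi-likelihood F test on 1 model of 16 libraries, two-sided, with Benjamini-Hochberg adjustment and a threshold of 0.05. The 8 libraries of a comparison were also fitted alone, with fewer symbols passing the filter, and DESeq2 1.42.0 was an alternative, as were other scaling, no filter, rows as deposited, a replicate block, setting cH replicates 1 and 2 aside and leaving out each library. The scripts were tested on simulated data. Log2 fold changes are edgeR's; folds against a group without counts are lower bounds with 3 counts over the group. CPM means were compared with 31 exact permutation tests over the peptide genes, not adjusted. Each library came from a pool of 8 brains, per the labels. Whether a positive and a negative library of the same number shared a pool is not settled here. No 2 libraries of a group agreed within sampling noise.

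The peptide genes and all lists were chosen with earlier results of these data known. Named were all peptide genes, the 3 symbols most like each gene of at least 10 CPM (1 of them is not reported here), some detected receptors (the rule allowed any) and, of each list except the cell type markers, the 2 genes with the smallest p in a contrast; cpe, crhbp, ba1l, slc4a1a, galr1b, rx3, sim1a and nr5a1b were named after their values were seen.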

Additional observations from a re-analysis of the deposited data

Results flagged for a closer look

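Some libraries stood apart from the other 3 of their group. Of 112 groups of libraries checked, 17 were flagged, and groups at 0 in all libraries are among the 112 but cannot be flagged. Chance alone flags about 1 in 20 groups in this way where values are normally distributed, which counts at or near 0 are not. In groups where 3 libraries are at 0 any count is enough. Such single counts were crhb in cH replicate 4 (3.47 CPM), oxt in LH replicate 1 (1.72 CPM), avp in LH replicate 1 (0.844 CPM) and in cH replicate 4 (1.71 CPM), qrfp in LH replicate 1 (0.562 CPM) and in cH replicate 2 (4.98 CPM), and the crh row in LH replicate 4 (5.17 CPM). avpr2ab in LH replicate 3 (1.09 CPM), otpb in cH replicate 4 (1.45 CPM), sim1a in LH replicate 3 (0.0587 CPM) and ucn3l in cH replicate 3 (0.637 CPM) were of the same kind. Among groups with counts in other libraries too, avp reached 1.62 CPM in non-cH replicate 3, with the next library at 0.368. gal reached 12.7 CPM in non-cH replicate 1, with the next at 6.31. trhr2 reached 1.14 CPM in non-LH replicate 3, sim1a 3.77 CPM in non-LH replicate 1, galr2b 21.1 CPM in cH replicate 4 and vgf 147 CPM in cH replicate 2.

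Whether the LH and the cH contrast differed was checked for the peptide genes, the crh row and some of the other genes named above. Among these they differed, by the test of that difference in edgeR, for uts1 (11.87 on the log2 scale), trhrb (-10.34), trhr2 (12.04), galr1a (13.21), ucn3l (6.52) and pam (0.86). The values of uts1, trhrb, trhr2 and galr1a are fitted against a group without counts and depend on edgeR's prior count, so their size is not a fold. Adjusted p-values were 2.85e-05 for uts1, 0.0152 for trhrb, 0.0154 for trhr2, 0.0262 for galr1a, 0.0218 for ucn3l and 0.0492 for pam. The list is not complete for all genes named above. Outside the set checked, the same test also passed the threshold for lhx9 (adjusted p = 0.00172), fezf2 (0.00645), vip (0.00923), sst1.2 (0.00926), cadpsb (0.00085) and cpe (0.0258), among others. It did not for chgb (0.0614) or kiss1 (0.170), among others. No cause was tested.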

How the results depend on the processing

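The number of peptide genes called in LH against non-LH was 0 in the 16-library fit, 1 in the 8-library fit, 2 with DESeq2, 1 with cH replicates 1 and 2 set aside and 0 to 1 when 1 library was left out (1 without cH replicate 2). In cH against non-cH it was 2, and 4 with cH replicates 1 and 2 set aside, gal and trh being added. Those 2 libraries held all cH counts of gal and include the cH library without trh counts. Setting them aside thus leaves cH at 0 for gal, and without its 0 for trh, through the choice of libraries. In LH against cH the number was 1, and 2 with DESeq2 (oxt added). There it was 2 with cH replicates 1 and 2 set aside (gal added, again with cH left at 0) and 1 to 2 without 1 library. The difference of the contrasts called 1, and 3 with cH replicates 1 and 2 set aside and 1 to 2 without 1 library. In non-LH against non-cH it was 0 throughout. Leaving out 1 library of the 8-library fit, an alternative chosen after seeing the data, gave 1 to 4 in LH (4 without LH replicate 1) and 1 to 3 in cH (1 without non-cH replicate 4). LH replicate 1 held the only LH counts of oxt and avp, so that omission leaves LH at 0 for both through the choice of library. The cause was not tested for any of the changes in these numbers.

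Directions turned only for genes that were not called. qrfp in LH against non-LH (0.13) ran from -5.35 to 0.80 without 1 library. qrfp in cH against non-cH (2.25) was -6.40 with cH replicates 1 and 2 set aside and ran from -6.38 to 3.79. avp in cH against non-cH (-0.44) was 0.62 with those set aside and ran from -7.48 to 0.82. oxt in LH against cH (no counts in cH) ran from 0 to 7.51. Among all symbols, calls in LH against non-LH numbered 338, 2499 over 8 libraries, 1155 with DESeq2, 1376 with cH replicates 1 and 2 set aside and 151 to 617 without 1 library. In cH against non-cH they numbered 4137 and 2054 over 8 libraries, and in LH against cH 4606 and 2314. Those of the difference were 2440, 4150 with DESeq2 and 4697 with cH replicates 1 and 2 set aside. In non-LH against non-cH they were 2, 160 with DESeq2, 30 with rows as deposited, 13 over 8 libraries, 13 with cH replicates 1 and 2 set aside and 0 to 5 without 1 library.

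In the labels, a positive and a negative sample of a line shared only a number. Correlations of same-numbered deviations ran from -0.00941 to 0.0318 in the LH line and from 0.0107 to 0.0396 in the cH line. Between the lines they ran from -0.0232 to 0.0183. Each cH library correlated best with its own number in non-cH. The replicate block called 0 peptide genes in LH against non-LH, 2 in cH against non-cH, 1 in LH against cH and 1 for the difference. It called 95 of all symbols in LH against non-LH, 1529 for the difference and 1 in non-LH against non-cH, and turned qrfp to -1.94 in LH and -3.51 in cH. Scaling by size factors, no filter and unscaled totals changed no call of a peptide gene.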
